A study of Mus musculus with 6 samples.

Results

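The RNA examined here comes from 5 of the 47729 genes counted in extracellular vesicles (EVs) of mouse B cells. They are n-R5-8s1, the gene named for 5.8S rRNA; Gm42418, Gm26917 and CT010467.1, which lie next to or over one another at a copy of the 45S rRNA gene; and Lars2, which encodes the leucyl-tRNA synthetase of mitochondria. The first 4 were chosen by their annotation and sequence class, and Lars2 by its high level among protein-coding genes. Earlier results of these data were known at that choice, so the levels of the 5 genes are given as a description without a test. All 5 were found in every count table. In 5 of the 6 libraries each of them had at least 1 count, and in anti-CD24 replicate 3 CT010467.1 had 0.

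The EVs were released by WEHI-231 cells, a mouse splenic B cell lymphoma line, and were captured with the Vn96 peptide. Cells were stimulated for 1 h with 10 µg/mL of either the rat anti-mouse CD24 antibody M1/69 or a matched isotype control, each with 5 µg/mL of an anti-rat secondary antibody, which the labels give as donkey and the study's methods as goat. There were 3 isotype and 3 anti-CD24 libraries, all from the 1 cell line, and the secondary antibody was present in both groups. The RNA was not fragmented before library preparation and was read on an IonTorrent PGM, with barcode 1 for every isotype library and barcode 2 for every anti-CD24 library, so barcode and stimulation cannot be told apart.

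RNA polymerase I transcribes the 45S precursor, in which an external spacer is followed by 18S rRNA, the first internal spacer, 5.8S rRNA, the second internal spacer and 28S rRNA. The spacers are cut out and degraded in the nucleolus and the nucleus, while the mature 18S, 5.8S and 28S rRNAs leave in ribosomal subunits. Since the copies of this gene stand in long repeats that genome assemblies largely leave out, reads from them collect at the few copies and partial copies that an annotation holds.

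At the annotated copy, the 3 genes spanned 5815 bases of chromosome 17 (GRCm38, GENCODE M21). Gm26917 (ENSMUSG00000097971, a lincRNA on the plus strand, 39843013 to 39846341) ended 11 bases before the start of CT010467.1 (ENSMUSG00000106106, an rRNA gene on the minus strand, 39846353 to 39848827). Gm42418 (ENSMUSG00000098178, a lincRNA on the plus strand, 39846958 to 39848788) lay opposite CT010467.1 and shared 1822 of its 1831 bases with exons of that gene. The sequences below, taken from the GENCODE M21 transcripts and written 5′ to 3′ on the plus strand, show which part of the 45S precursor each gene holds. Capitals mark 9-base motifs that are conserved in 18S rRNA, namely CTGGTTGAT near its 5′ end, CCGCGGTAA in its middle and GGATCATTA at its 3′ end.
Last 80 bases of Gm26917, chr17:39846262-39846341: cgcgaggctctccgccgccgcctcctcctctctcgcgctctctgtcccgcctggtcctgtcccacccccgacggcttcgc
First 80 bases opposite the 3′ end of CT010467.1, chr17:39846353-39846432: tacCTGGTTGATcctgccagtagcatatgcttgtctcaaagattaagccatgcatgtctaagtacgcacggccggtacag
First 120 bases of Gm42418, chr17:39846958-39847077: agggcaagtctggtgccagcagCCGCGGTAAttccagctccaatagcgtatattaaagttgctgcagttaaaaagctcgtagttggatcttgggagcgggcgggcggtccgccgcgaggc
Gm42418 across GGATCATTA, chr17:39848122-39848281: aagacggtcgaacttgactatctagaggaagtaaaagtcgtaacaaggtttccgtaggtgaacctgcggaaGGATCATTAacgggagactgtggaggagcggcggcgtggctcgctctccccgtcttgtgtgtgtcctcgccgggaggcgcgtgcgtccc

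The longer transcript of CT010467.1 was, read on the opposite strand, 1849 bases whose first bases hold CTGGTTGAT and which ended with the last base of GGATCATTA, which are the ends of 18S rRNA. Gm26917 therefore lay in the place of the external spacer. Gm42418 began inside 18S rRNA, held its last 1244 bases and continued for 587 bases into the first internal spacer. The GC content was 55.1% in the 18S piece of Gm42418 and 71.0% in its spacer piece, and it was 69.1% in Gm26917. Among 55450 genes with a transcript in the annotation, 0.779% held CTGGTTGAT, 0.0613% held CCGCGGTAA and 0.458% held GGATCATTA on the sense strand. On either strand these shares were 1.84%, 0.137% and 0.929% in the same order. Gm42418 held CCGCGGTAA and GGATCATTA once each, and Gm26917 held none of the 3.

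This arrangement, as GENCODE M21 gives it, bears on what could be counted. The authors counted on an Ensembl annotation whose gene models may differ, and 419 of the 47729 genes counted were not listed in GENCODE M21. No gene of GENCODE M21 on the plus strand covered the 616 bases between Gm26917 and Gm42418, which hold the first part of 18S rRNA. Under these gene models, sense reads from there would not be counted on any gene. A count on Gm42418 does not tell whether the read came from 18S rRNA or from the spacer. AY036118 (923 bases on the minus strand) lies wholly within an exon of CT010467.1 on the same strand. Reads that fit exons of 2 genes were set aside as ambiguous by the counting rule used, and AY036118 was listed at 0 in all 6 libraries.

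**Figure D1:**
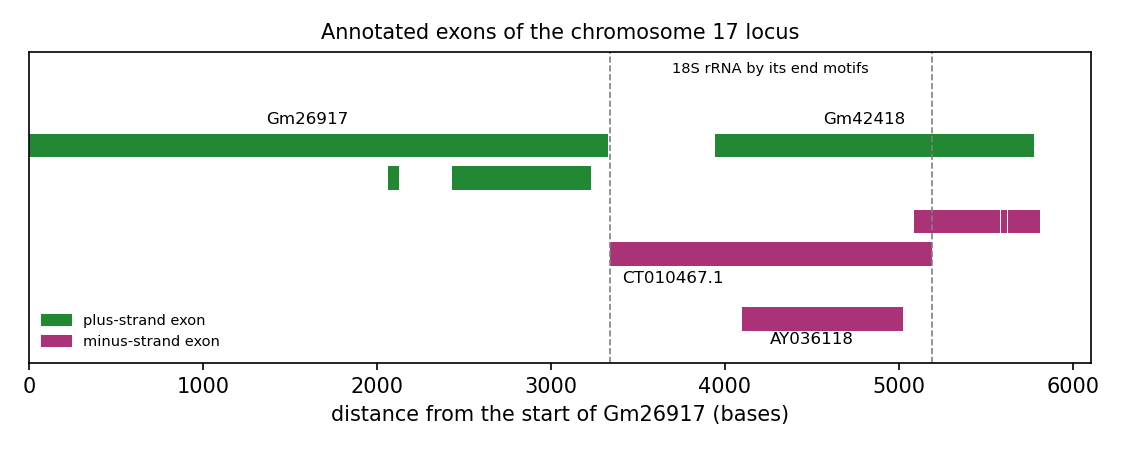
Exons of the 4 annotated genes at the chromosome 17 copy of the 45S rRNA gene, by distance in bases from the start of Gm26917 (x axis). Green bars are exons on the plus strand and purple bars exons on the minus strand, each row being 1 transcript, and the dashed lines enclose the 1849 bases between the ends of 18S rRNA. Gm26917 stops 11 bases before the first line and Gm42418 crosses the second.

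The 5.8S rRNA gene n-R5-8s1 (ENSMUSG00000065922, 148 bases on the minus strand of chromosome 18 in GRCm38, 73533403 to 73533550) had more counts than any other gene in the means over the 6 libraries. 5.8S rRNA pairs with 28S rRNA in the large ribosomal subunit. It took 70.6%, 75.1% and 75.6% of gene counts in isotype replicates 1, 2 and 3, and 73.2%, 44.7% and 52.7% in anti-CD24 replicates 1, 2 and 3. Anti-CD24 replicates 2 and 3 were below every isotype library, while anti-CD24 replicate 1 lay within the isotype range, so the groups overlapped. The mean was 73.7% ± 2.73 (SD, n = 3) in the isotype and 56.8% ± 14.7 (SD, n = 3) in the anti-CD24 libraries. This difference of -16.9 percentage points was -2.97 over all reads listed, those not counted on a gene included, and -10.8 without anti-CD24 replicate 2. The reads listed include 469443 not aligned in isotype replicate 1, where the next highest was 223219 in isotype replicate 3. The -2.97 therefore leans on isotype replicate 1, and its value without that library was not computed. The gap between anti-CD24 replicates far exceeded the counting error, as the widest 95% Wilson interval of these shares spanned 0.416 percentage points. Wilson intervals here cover counting error only, since reads carried no molecular identifiers. Gene counts, the denominator of the share, can hold a read at each of several equal copies, as may occur at the near-identical 5S rRNA genes. The copy n-R5s143 had 2294, 881 and 4042 counts in isotype replicates 1 to 3 and 3297, 9837 and 10313 in anti-CD24 replicates 1 to 3. The share of n-R5-8s1 with such copies counted once was not computed.

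Gm42418, made of 18S rRNA and spacer, was next in mean level and was the most abundant lincRNA. Its level was 15295, 19930 and 28147 CPM (counts per 1000000 gene counts of the library) in isotype replicates 1 to 3 and 14244, 22143 and 37904 CPM in anti-CD24 replicates 1 to 3. In both conditions replicate 1 was lowest and replicate 3 highest, and the groups overlapped. Libraries with the same number shared a sequencing run by their run names. The share of gene counts was 2.11% ± 0.651 (SD, n = 3) with isotype and 2.48% ± 1.20 (SD, n = 3) with anti-CD24.

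Gm26917, at the place of the external spacer, had 343, 325 and 607 counts in isotype replicates 1 to 3 and 2500, 2055 and 716 counts in anti-CD24 replicates 1 to 3. Scaled to CPM this was 1064, 1956 and 795 CPM with isotype and 4096, 2790 and 902 CPM with anti-CD24. Anti-CD24 replicates 1 and 2 stood above every isotype library and anti-CD24 replicate 3 fell among them. Of the 4 genes with counts in every library it varied most, by 5.15-fold between its lowest and highest CPM, against 1.69-fold for n-R5-8s1, 2.66-fold for Gm42418 and 2.08-fold for Lars2.

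CT010467.1, the gene on the strand opposite to 18S rRNA, had 3, 1 and 9 counts in isotype replicates 1 to 3 and 1, 2 and 0 counts in anti-CD24 replicates 1 to 3. The 0 in anti-CD24 replicate 3 allows a share of up to 0.000378% of its 794185 gene counts. Its 16 counts stood against 84842 on Gm42418, which is 0.0189% of the sum on the 2 strands (95% Wilson interval 0.0116% to 0.0306%, pooled over libraries). Nearly all counted reads of this stretch thus had the strand of the precursor, although minus-strand reads within the 923 bases of AY036118 were left out of this sum by the counting rule.

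Lars2 (ENSMUSG00000035202, plus strand of chromosome 9 in GRCm38, 123366927 to 123462666) was the protein-coding gene of highest mean CPM, which is how it was chosen. It had 338, 202 and 1071 counts in isotype replicates 1 to 3 and 1178, 754 and 737 counts in anti-CD24 replicates 1 to 3. In CPM its level was 1048, 1216 and 1402 with isotype and 1930, 1024 and 928 with anti-CD24. Anti-CD24 replicate 1 was the highest and the other two anti-CD24 libraries were the lowest, so the anti-CD24 values enclosed the isotype values. The means were 1222 ± 177 CPM (SD, n = 3) and 1294 ± 553 CPM (SD, n = 3).

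**Figure D2:**
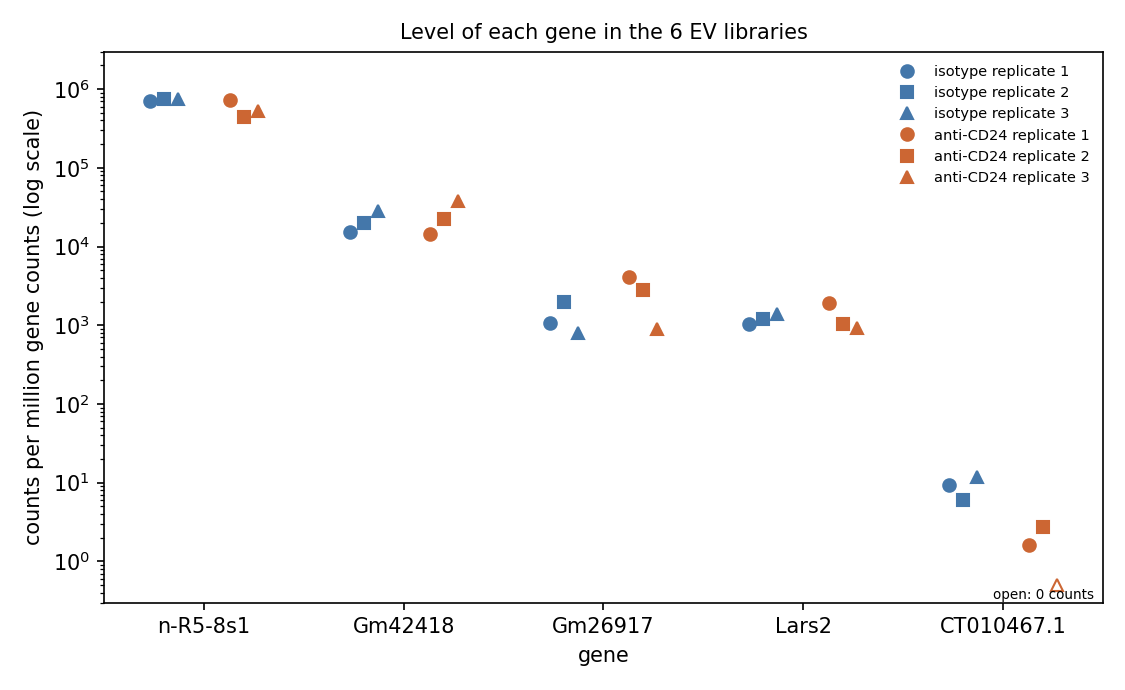
Level of the 5 genes in each of the 6 libraries, in CPM on a log scale (y axis), with isotype libraries in blue and anti-CD24 libraries in orange and 1 marker shape per replicate number. The open triangle, drawn at the foot of the axis, is the 0 of CT010467.1 in anti-CD24 replicate 3; n-R5-8s1 lies between 446702 and 755577 CPM and CT010467.1 between 0 and 11.8 CPM.

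Together the 5 genes held 47.3% to 78.6% of gene counts per library, with a median of 73.8%. Since the genes differ in length, their levels were also divided by the length of their annotated exons. On that scale n-R5-8s1 stood at 4411470 ± 894397 CPM per kb (SD, n = 6) and Gm42418 at 12531 ± 4853 CPM per kb (SD, n = 6). Gm26917 followed at 581 ± 392 CPM per kb (SD, n = 6), Lars2 at 113 ± 33.3 CPM per kb (SD, n = 6) and CT010467.1 at 2.13 ± 1.87 CPM per kb (SD, n = 6). With these lengths the ranges of neighbours in this order did not overlap. The narrowest gap was between the 239 CPM per kb of Gm26917 in its lowest library and the 174 CPM per kb of Lars2 in its highest. The exons of all annotated Lars2 transcripts cover 11089 bases, and the coding transcript used below has 3894. Divided by that shorter length, the range of Lars2 would overlap that of Gm26917, so this gap depends on the length chosen. Since the RNA was not fragmented, counts need not scale with exon length. Whether they did was not tested, so the order per kb is a description only.

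Whether CD24 stimulation changed these RNAs was tested by edgeR's quasi-likelihood test with TMM scaling over the 1501 genes with at least 1 CPM in 3 or more libraries. All 5 genes passed that filter and 0 of the 5 had an adjusted p under 0.05, against 0.0666% (1 gene, lower after anti-CD24) of all genes tested. An unadjusted p under 0.05 was found for 120 genes and for 0 of the 5. With the run of each replicate number as a block, 0 genes passed the threshold, and 20 had an unadjusted p under 0.05. Without anti-CD24 replicate 1 the number of genes rose to 48, without isotype replicate 1 or anti-CD24 replicate 2 it was 0, with 56 and 102 unadjusted, and without anti-CD24 replicate 3 it was 3. Over all genes tested the median log2 fold change was -0.29.

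Among the 4 genes with more than a few counts, Gm26917 had the largest fitted change, a log2 fold change of 1.18 (SE 0.73, adjusted p = 0.54 by edgeR's quasi-likelihood test). After TMM scaling its level was 960, 1452 and 912 CPM with isotype and 3743, 2044 and 1753 CPM with anti-CD24, and on this scale the groups did not overlap. The same was true of CT010467.1, so 2 of the 5 genes had groups apart, against 15.9% of all genes tested. For Gm26917 the separation was seen after TMM scaling and not in the unscaled CPM above, as the TMM factor that divides anti-CD24 replicate 3 was 0.514, while the other 5 lay between 0.871 and 1.36. The fold change of Gm26917 stayed above 0 under all 14 alternatives, from 0.55 to 1.67, with a lowest adjusted p of 0.29. The 1.18 of Gm26917 was below the median of 1.28 over the 47 genes tested with a mean log2 CPM of 10 or more. That set, whose level was chosen after the values were seen, includes Gm26917 and many near-identical copies of 5S rRNA. RNAs of red blood cells were counted in anti-CD24 replicate 1, the library of highest Gm26917, with 99 counts over 4 of 6 erythroid marker genes, and had 0 counts in the other 5 libraries. Hbb-bs and Hbb-bt had 38 and 36 of these counts, and Hba-a1 and Hba-a2 had 13 and 12. Genes with such near-equal counts may share reads. Without anti-CD24 replicate 1 the fold change of Gm26917 was 1.13.

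The log2 fold change of CT010467.1 was -2.60 (SE 1.47, adjusted p = 0.54 by edgeR's quasi-likelihood test), a fit that rests on 16 counts and depends on the prior count. Per gene count, the pooled anti-CD24 libraries held 3 counts against 13 in the isotype libraries, a ratio of 0.135 (exact 95% interval for counting error 0.0247 to 0.491). That interval leaves out the spread between libraries, which the adjusted p includes.

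The other 3 genes had no fixed direction. Gm42418 had a log2 fold change of 0.76 (SE 0.78, adjusted p = 0.70 by edgeR's quasi-likelihood test), which turned to -0.31 without anti-CD24 replicate 3. Lars2 had 0.32 (SE 0.73, adjusted p = 0.85 by the same edgeR test), which turned to -0.29 with DESeq2 and to -0.20 without isotype replicate 2. For n-R5-8s1 it was -0.03 (SE 0.94, adjusted p = 0.99 by the same edgeR test), and it ran from -0.96 with at least 10 counts in every library to 0.35 with TMM factors from genes outside the rRNA and ribozyme classes. The standard errors of 0.73 to 0.94 on the log2 scale leave room for changes in either direction, and the missing calls do not show that levels were alike. Of the 47 genes tested with a mean log2 CPM of 10 or more, 46 had a fold change above 0, many of them near-identical copies of 5S rRNA, and the remaining 1 was n-R5-8s1. This level was chosen after the values were seen. The median log2 fold change was 1.28 for these 47 genes and -0.41 for the 1454 genes below the level.

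**Figure D3:**
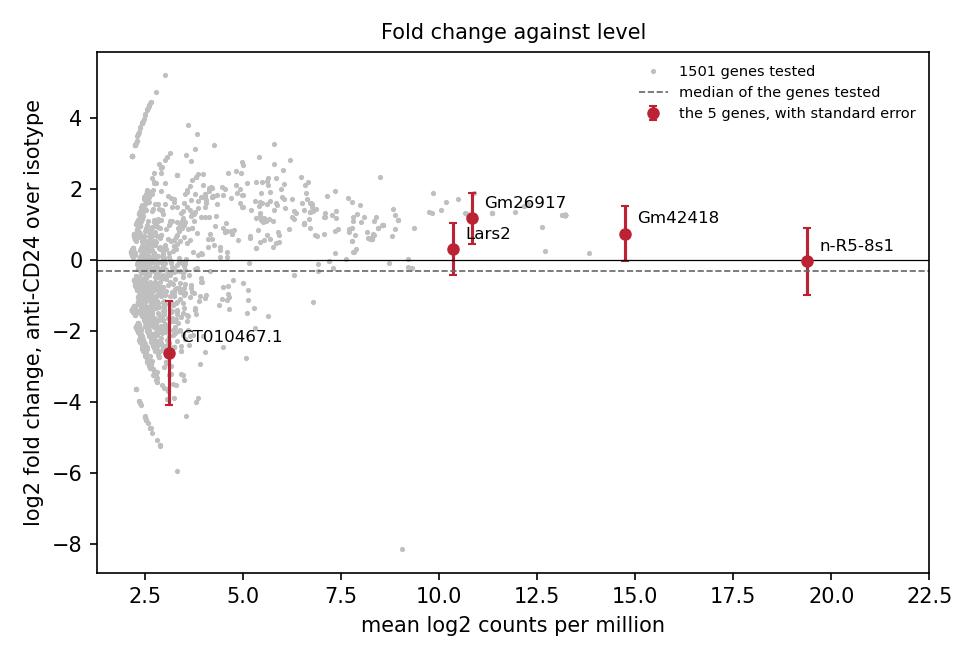
Log2 fold change of anti-CD24 over isotype (y axis) against mean log2 CPM (x axis) for the 1501 genes tested, in grey, with the 5 genes in red and bars of 1 standard error. The dashed line is the median of the genes tested, -0.29; the bars of Lars2, Gm42418 and n-R5-8s1 cross 0.

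Ratios between loci within a library do not depend on how libraries are scaled, and were compared to see whether the pieces of the precursor moved together. Gm26917 had 6.96, 9.82 and 2.82 counts per 100 counts of Gm42418 in isotype replicates 1 to 3 and 28.8, 12.6 and 2.38 in anti-CD24 replicates 1 to 3. The ratio of external spacer to the 18S and internal spacer gene thus spanned 12.1-fold over the 6 libraries, with the lowest value of each condition in replicate 3. From isotype to anti-CD24 it changed by 2.05, 0.36 and -0.25 on the log2 scale in runs 1 to 3 (mean 0.72, exact permutation test, two-sided p = 0.5). Without anti-CD24 replicate 1 the mean difference was -0.08.

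n-R5-8s1 had 46.2, 37.7 and 26.8 counts for each count of Gm42418 in isotype replicates 1 to 3, and 51.4, 20.2 and 13.9 in anti-CD24 replicates 1 to 3. In both conditions the ratio was highest in the library of run 1 and lowest in that of run 3. The change from isotype to anti-CD24 was 0.15, -0.90 and -0.95 on the log2 scale in the 3 runs (mean -0.57, exact permutation test, two-sided p = 0.5). The mean was -0.16 without anti-CD24 replicate 3, -0.39 without isotype replicate 1 and -1.10 without anti-CD24 replicate 1.

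CT010467.1 had 0.0608, 0.0302 and 0.0419 counts per 100 counts of Gm42418 in isotype replicates 1 to 3 and 0.0115, 0.0123 and 0 in anti-CD24 replicates 1 to 3. All anti-CD24 libraries were below all isotype libraries. With 1 added to both counts the mean log2 difference was -2.45 (exact permutation test, two-sided p = 0.1, the smallest that 3 against 3 libraries allow). It was -1.57 without anti-CD24 replicate 3. At 0 to 9 counts of CT010467.1 per library, the added 1 makes this difference depend on depth. The denominator Gm42418 had 4931, 3311 and 21497 counts in isotype replicates 1 to 3 and 8693, 16307 and 30103 in anti-CD24 replicates 1 to 3. With pooled counts of a condition and nothing added, the log2 difference was -3.01. How much of the -2.45 comes from the added 1 was not tested.

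Lars2 had 6.85, 6.10 and 4.98 counts per 100 counts of Gm42418 with isotype and 13.6, 4.62 and 2.45 with anti-CD24, in the order of replicates. On the log2 scale the SD of the ratio was 0.233 (n = 3) with isotype and 1.25 (n = 3) with anti-CD24. The mean log2 difference was -0.15 (exact permutation test, two-sided p = 0.8). Against Gm26917 the Lars2 ratio was lower after anti-CD24 in all 3 runs, by -1.06, -0.76 and -0.78 on the log2 scale. The mean was -0.87 and the groups overlapped (exact permutation test, two-sided p = 0.3; exact sign-flip test over runs, p = 0.25, the smallest that 3 pairs allow). The mean was -0.48 without isotype replicate 3, -0.56 without anti-CD24 replicate 2 and -1.30 without anti-CD24 replicate 3. These were 5 ratios in all, and p-values were not adjusted, since the smallest was 0.1.

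**Figure D4:**
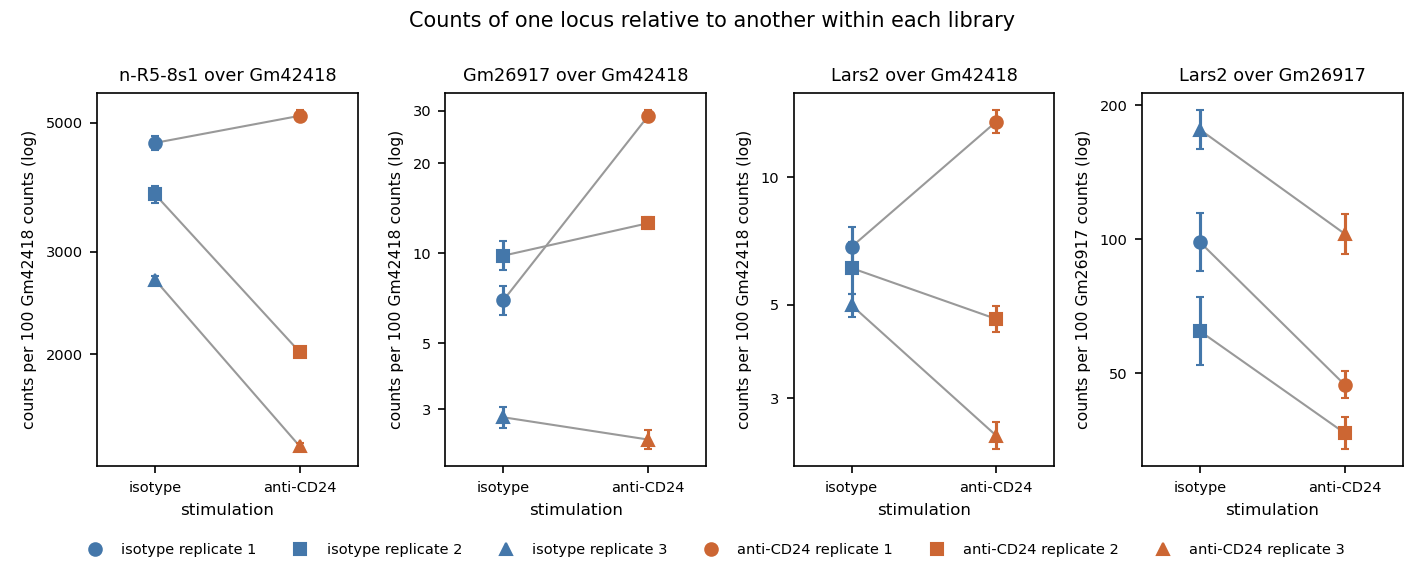
Counts of 1 locus per 100 counts of another in the same library (y axes, log scale), with grey lines joining the isotype and anti-CD24 libraries of 1 sequencing run and bars for 95% Wilson counting intervals. The lines of Gm26917 over Gm42418 and of Lars2 over Gm42418 run in both directions, and those of Lars2 over Gm26917 all fall.

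Lars2 has been suspected of collecting rRNA reads, so its transcripts were compared with all 141767 annotated transcripts. With a match set at 30 or more bases of at least 90% identity, the coding transcript ENSMUST00000038863 of Lars2 matched 7 other genes, and only Gm15564 among them had 100 or more counts over the 6 libraries. The match covered 72 bases at 98.61% identity with 1 mismatch. In Lars2 it lay on chromosome 9 from 123462048 to 123462119, in the 3′ UTR within the last of 21 exons. Gm15564 (ENSMUSG00000086324) is an antisense RNA gene on the minus strand of chromosome 16. It was listed as a possible collector of rRNA-like reads, and whether it holds sequence of 28S rRNA was not tested. Of the shared stretch, 30 bases around the mismatch are shown from the GENCODE M21 transcript, with the base that differs in capitals.
Gm15564, chr16:35981730-35981759, minus strand, GRCm38: ggaacgtgagctgggTttagaccgtcgtga
Counted from 1 at the 5′ end of these 30 bases, the substitution from Lars2 to Gm15564 was A16T. No 28S rRNA sequence was used here, and how many Lars2 counts fell on these 72 bases cannot be read from counts per gene.

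Neither Gm42418, Gm26917 nor CT010467.1 matched any Lars2 transcript, and n-R5-8s1 matched no other annotated gene. Over all of its transcripts, including those with retained introns, Lars2 matched 817 genes. Only Gm15564 and Itsn1 of these had 100 or more counts, and the Itsn1 match was 33 bases at 90.91% identity on the opposite strand. Gm15564 had 97, 15 and 32 counts in isotype replicates 1 to 3 and 121, 67 and 26 in anti-CD24 replicates 1 to 3, fewer than Lars2 in every library.

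The other mitochondrial aminoacyl-tRNA synthetases, which charge tRNAs for translation in the organelle, give a comparison for Lars2. Of these 18 genes, 12 had 0 counts in all 6 libraries and the other 6 had 25 counts in sum, against 4280 for Lars2. The highest single value was 8 counts of Iars2, the isoleucyl-tRNA synthetase, in isotype replicate 3. Lars2 was the only gene of the 19 that passed the filter for the test.

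**Figure D5:**
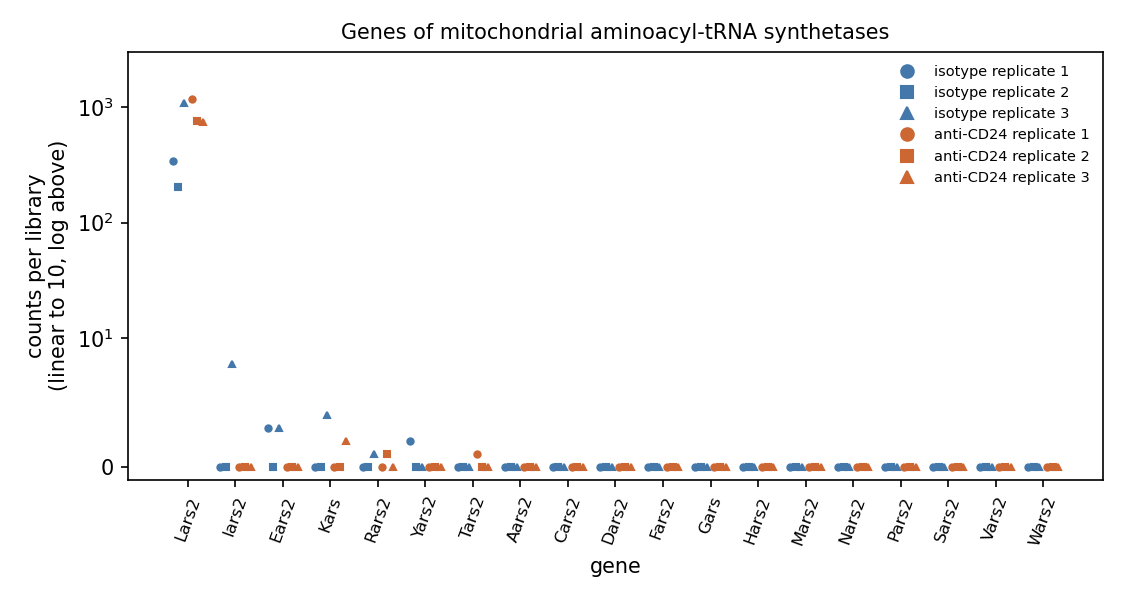
Counts per library (y axis, linear to 10 and log above) of the 19 genes of mitochondrial aminoacyl-tRNA synthetases, with isotype libraries in blue and anti-CD24 libraries in orange. Lars2 lies between 202 and 1178 counts and no other gene exceeds 8.

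Among 7 other annotated loci listed as possible collectors of rRNA-like reads, 6 were tested, 0 passed the threshold and their median log2 fold change was -0.48. None of the 7 was compared with an rRNA sequence, so whether each holds rRNA-like sequence was not tested. The most abundant were Gm23935 and Mir6236, both annotated as miRNA genes. Gm23935 had 975, 549 and 1427 counts with isotype and 2522, 4247 and 5772 with anti-CD24, in the order of replicates. Its log2 fold change was 1.60 (SE 0.75, adjusted p = 0.54 by edgeR's quasi-likelihood test). Mir6236 had 383, 115 and 545 counts with isotype and 3550, 1746 and 777 with anti-CD24, with its highest value, like that of Gm26917, in anti-CD24 replicate 1. Its log2 fold change was 1.90 (SE 0.75, adjusted p = 0.49 by the same edgeR test). Gm10800, Gm10801 and Gm26870 had 72 to 386 counts over the 6 libraries, with log2 fold changes of -1.17, -1.36 and -0.64. The counts of Gm15564 are given above, and its log2 fold change was -0.31.

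The machinery that makes and cuts the precursor was scarcely counted. Of 32 genes for RNA polymerase I and nucleolar processing proteins, 17 had a count, with 48 counts in sum and 4 to 12 per library. Of these, 4 were tested and 0 passed the threshold, with a median log2 fold change of 0.50. That median rests on Polr1a, Ubtf, Fbl and Npm1, which had only 3, 6, 5 and 4 counts over the 6 libraries. Ncl, which encodes nucleolin, had the most, at 9 counts, and was not among the genes tested. Its counts were 3, 0 and 6 in isotype replicates 1 to 3 and 0 in each anti-CD24 library. Among the small RNAs that guide or cut the precursor, 5 of 20 genes had a count and 4 were tested. None of the 4 passed the threshold, and their median log2 fold change was 0.84. Rmrp, the RNA of RNase MRP, had 522 counts, Snord118 (U8, needed for 5.8S and 28S rRNA) had 187 and Snord13 had 162, while all genes of the Rnu3 group (U3, needed for 18S rRNA) were listed at 0. Each Rnu3 gene stands under 2 gene IDs at nearly the same bases of 1 strand in GENCODE M21, and the counting rule sets reads on both aside as ambiguous, so these zeros do not limit the level of U3.

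B cell markers were likewise near the floor of detection, with 59 counts over 9 of 10 genes, 0 to 20 per library and 0 in isotype replicate 2. Of these, 4 genes were tested and 0 passed the threshold, with a median log2 fold change of -1.26. The 4 went in both directions on few counts. Ighm, with the most counts (23), was at 0.71, and Cd79a, Cd79b and Cd74 (4, 5 and 14 counts) were at -0.58, -2.16 and -1.95. T cell and platelet markers had 0 counts, where a count of 0 allows up to 3.78 to 18.1 CPM per gene, depending on the library. Myeloid markers had 8 counts, of which 4 were in anti-CD24 replicate 1 and 4 in anti-CD24 replicate 2. The part of the erythroid counts in anti-CD24 replicate 1 in the levels of Gm26917 and Lars2, both highest there, was not tested.

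For each gene the 3 genes most alike in profile were taken as those with the highest Pearson correlation of log2(CPM + 1) over the 6 libraries, among 103 genes with at least 10 counts in every library, where genes with identical counts entered once. For Lars2 these were Gm26461 (r = 0.95), Rn7s2 (r = 0.93) and Rn7s1 (r = 0.93), the last 2 being genes of 7SL RNA, the RNA of the signal recognition particle. Rn7s1 had 45, 38 and 204 counts with isotype and 202, 139 and 113 with anti-CD24. For Gm26917 they were Gm24924 (r = 0.99) and Gm26244 (r = 0.99), annotated as snRNA, and Gm22980 (r = 0.96), annotated as snoRNA. Gm24924 and Gm26244 had nearly the same counts in each library and may share reads.

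For n-R5-8s1 the closest profiles were Gm24601, annotated as rRNA (r = 0.90), Snord17 (r = 0.86) and Gm10800 (r = 0.60). For CT010467.1 they were Vaultrc5, a vault RNA (r = 0.91), Gm10800 (r = 0.79) and Rmrp (r = 0.79). No profile was close to that of Gm42418, for which the highest were n-R5s136 (r = 0.62), mt-Cytb (r = 0.55) and n-R5s143 (r = 0.50). Among the 5 genes themselves, r ran from -0.62, between Gm42418 and Gm26917, to 0.62, between n-R5-8s1 and Lars2. With 6 libraries that share depth and composition, these values are a description only.

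Counts on genes ran from 166129 to 794185 per library, with a median of 322397 for isotype and 736432 for anti-CD24. Between 46118 and 469443 reads per library were listed as not aligned, 40699 to 278045 as on no gene and 2743 to 21834 as ambiguous. None was listed as aligned to more than 1 place.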

How the data were processed

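RNA from EVs was extracted with TRIzol and made into libraries with the Ion Total RNA-Seq Kit v2. The authors used the FASTX toolkit for trimming, tmap for alignment and HTSeq 0.5.4p5 (union mode, stranded, exons) for counting, and deposited unnormalized counts of reads per gene. The build was GRCm38.p4 by the submitters' processing notes, while the methods name a later patch. tmap was set to report all best hits, so a read with several equal copies can be counted at each.

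Symbols, positions and transcripts came from GENCODE M21 (GRCm38), in which 419 of the 47729 genes were not listed. The 5 summary lines of each file were left out of gene totals. The main test on counts was the quasi-likelihood test of edgeR 4.0.16, run in R 4.3.3 (genes with 1 CPM in 3 libraries, TMM, Benjamini-Hochberg threshold 0.05), which was first tested on simulated counts. Replicates are stated to be biological. Shares, ratios and exact tests used Python 3.11.15, numpy 2.4.6, pandas 2.3.3 and scipy 1.17.1, and figures matplotlib 3.10.9. Transcripts were compared with BLAST+ 2.17.0, and motifs were searched on both strands.

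The same results were recomputed with the exact test of edgeR, with DESeq2 1.42.0, with other scalings and filters, with identical counts kept once, the replicate block, other denominators, a pseudocount of 1, pooled counts, and each library left out. Same-numbered libraries shared a run by their run names; the correlations across 1501 genes of their deviations from the group means were -0.03, -0.02 and -0.11.

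The members and gene lists were chosen with earlier results of these data known. Genes named are the members, genes overlapping them, their 3 most alike profiles, their sequence matches of at least 100 counts, and the lists.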

Additional observations from a re-analysis of the deposited data

How the results depend on the processing

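The number of genes past the threshold was 1, and became 0 with DESeq2 (95 with an unadjusted p under 0.05), 0 with at least 10 counts in every library (134 genes tested, 3 unadjusted), 0 with the replicate block (20 unadjusted) and 2 with no filter. Leaving out 1 library in turn gave 0 to 48 genes, the highest without anti-CD24 replicate 1, where 47 were higher after anti-CD24. The 5 genes were not past the threshold in any of 69 alternative fits, with a lowest adjusted p of 0.18. CT010467.1 could not be fitted with at least 10 counts in every library. Scaling moved the median log2 fold change of all genes from -0.29 to 0.15 with TMM factors from genes outside the rRNA and ribozyme classes and to -0.97 with DESeq2.

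The direction reversed in 8 of the 69 fits. For n-R5-8s1 (-0.03) these were 0.35 with TMM factors from non-rRNA genes, 0.051 with no filter and 0.059 without anti-CD24 replicate 1 (-0.57 to 0.059 with 1 library left out), while it was -0.38 without TMM, -0.65 with DESeq2 and -0.96 with at least 10 counts. Gm42418 (0.76) was at -0.64 with at least 10 counts in every library and at -0.31 to 1.15 with 1 library left out. Lars2 (0.32) was at -0.29 with DESeq2, -0.47 with at least 10 counts and -0.20 to 0.26 with 1 library left out. The fold changes with the replicate block kept their direction for all 5 genes, from -2.56 for CT010467.1 to 1.13 for Gm26917.

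The log2 ratio of Gm26917 to Gm42418 ran from -0.077 to 1.72 and that of Lars2 to Gm42418 from -0.82 to 0.42 with 1 library left out, while the other 3 ratios kept their direction, from -2.97 to -1.57 for CT010467.1 to Gm42418, -1.10 to -0.16 for n-R5-8s1 to Gm42418 and -1.30 to -0.48 for Lars2 to Gm26917 (-1.32 with pooled counts). Of shares in percentage points, n-R5-8s1 (-16.9) became -2.97 over all reads listed, which include 469443 not aligned in isotype replicate 1. Over gene counts it ran from -25.1 to -10.8 with 1 library left out. Gm42418 (0.364) became -1.71 over non-rRNA counts and ran from -0.293 to 0.890 with 1 library left out. Lars2 (0.00718) became -0.220 over non-rRNA counts and -0.00398 with pooled counts, and ran from -0.0246 to 0.0255. Gm26917 (0.132) became 0.796 over non-rRNA counts and ran from 0.0574 without anti-CD24 replicate 1 to 0.217 without anti-CD24 replicate 3, and CT010467.1 (-0.000758) became -0.000399 over all reads listed. The cause of these shifts was not tested. The depth limits CT010467.1 most, at 0 to 9 counts per library.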
